A study of Mus musculus with 8 samples.

Results

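The 8 genes of the Hedgehog pathway followed here were measured by RNA-Seq of whole fetal ovaries. They were the ligands *Dhh* and *Ihh*, the receptor *Ptch1*, the decoy receptor *Hhip*, the transducer *Smo* and the transcription factors *Gli1*, *Gli2* and *Gli3*. They were taken by gene symbol from the count files, which hold 25239 genes, and all 8 were found. Of the 8, 7 had enough counts to be among the 14249 genes tested between genotypes, and *Ihh* did not. The membership was set by gene name, and it was chosen with earlier results of these data known.

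The libraries came from E14.5 ovaries of C57BL/6 mice. The 4 control libraries were *Bmpr1a* fl/fl, and the 4 *Bmpr1a*-cKO libraries were *Bmpr1a* fl/fl; *Oct4-Cre* Cre/WT, in which a 4-hydroxytamoxifen (4OHT)-dependent Cre under *Oct4* control deletes the BMP receptor gene *Bmpr1a* in germ cells. All dams, and so both genotypes, received 1 mg 4OHT and 0.5 mg progesterone at 9.5 dpc and again at 10.5 dpc and 11.5 dpc. The 8 embryos of each genotype came from 6 litters, and each library held the ovaries of 2 embryos. The litter of a library is not given, so the spread between libraries is that between pools. Somatic cells of the *Bmpr1a*-cKO ovary are meant to keep *Bmpr1a*, and the control embryos carry no Cre, so an effect of Cre itself cannot be told apart from that of the deletion. Total counts ran from 10622684 to 15365052 for control and from 8562961 to 14887102 for *Bmpr1a*-cKO. In bulk RNA, fewer cells of a type and less RNA per cell cannot be told apart.

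Hedgehog ligands are secreted, lipid-modified proteins. They bind Patched receptors, which otherwise hold the membrane protein Smoothened (*Smo*) inactive. Active Smoothened lets the Gli factors work as activators, whereas without ligand *Gli3*, and to a lesser extent *Gli2*, is processed into a repressor. *Gli1*, *Ptch1* and *Hhip* are themselves transcribed in response to the pathway in many tissues, and *Gli1* has for that reason long been used as its readout. In the gonads, *Dhh* is made by Sertoli cells of the fetal testis, *Dhh* and *Ihh* by granulosa cells of the growing follicle, and the receiving cells belong to the interstitium or the theca.

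The members lie on different chromosomes or far apart on mm10. *Gli1* spans chr10:127329882-127341974, *Ptch1* chr13:63508328-63573598, *Smo* chr6:29735503-29761365, *Gli2* chr1:118834132-119053619, *Gli3* chr13:15463235-15730026, *Hhip* chr8:79965851-80058006, *Dhh* chr15:98891152-98898540 and *Ihh* chr1:74945315-74951672. *Smo* and *Gli3* are on the plus strand and the others on the minus strand. Positions and exons were taken from GENCODE vM21.

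Paralogues can share reads, so the longest stretch of identical coding sequence was found for the Gli factors and for the ligands. The windows of the Gli factors below are coding strand, 5′ to 3′, with the identical run in capitals and up to 15 flanking bases on either side in lower case. They are shown because they mark where these paralogues are identical for longest. The study's reads were longer than any of these runs, so no full-length read fits inside one.
Gli1, exons 9 to 10: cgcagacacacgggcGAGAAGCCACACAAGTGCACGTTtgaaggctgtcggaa
Gli2, exons 10 to 11: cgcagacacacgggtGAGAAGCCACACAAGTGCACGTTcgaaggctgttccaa
Gli2, exon 10: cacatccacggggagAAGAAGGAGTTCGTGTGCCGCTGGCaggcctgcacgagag
Gli3, same stretch: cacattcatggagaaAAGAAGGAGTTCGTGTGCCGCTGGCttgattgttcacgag
The run that *Gli1* shares with *Gli2* is 23 bases long and crosses an exon junction in both genes (chr10:127334362-127335983 and chr1:118844514-118845937). The run of *Gli2* and *Gli3* is 25 bases long (chr1:118846012-118846036 in *Gli2*), and both lie in the part that codes for the zinc fingers. *Gli1* and *Gli3* share 14 bases, *Dhh* and *Ihh* 16 bases, and *Dhh* or *Ihh* and *Shh* 17 bases. Each identical run is thus at most 25 of the 1188 to 4749 coding bases of these genes.

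The question was whether the Hedgehog genes of the ovary differed when the germ cells had lost *Bmpr1a*. They differed unevenly. *Gli1* was 1.88-fold higher in *Bmpr1a*-cKO ovaries (95% CI 1.53 to 2.32), and *Ptch1* was 1.19-fold higher (95% CI 1.07 to 1.32). *Smo*, *Gli2*, *Gli3*, *Hhip* and *Dhh* did not pass the test, and the ligand counts were low in every library. Of the 7 members tested, 2 had an FDR below 0.05, or 28.6%, beside 29.8% of all genes tested. The 2 genes were both higher, beside 17.3% of all genes higher and 12.5% lower. Their share is therefore near that of the whole transcriptome, and the median Log2FC of the 7 members was 0.01, beside -0.004 over all genes. Each FDR comes from edgeR (quasi-likelihood F test, Benjamini-Hochberg across the genes tested).

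**Figure D1:**
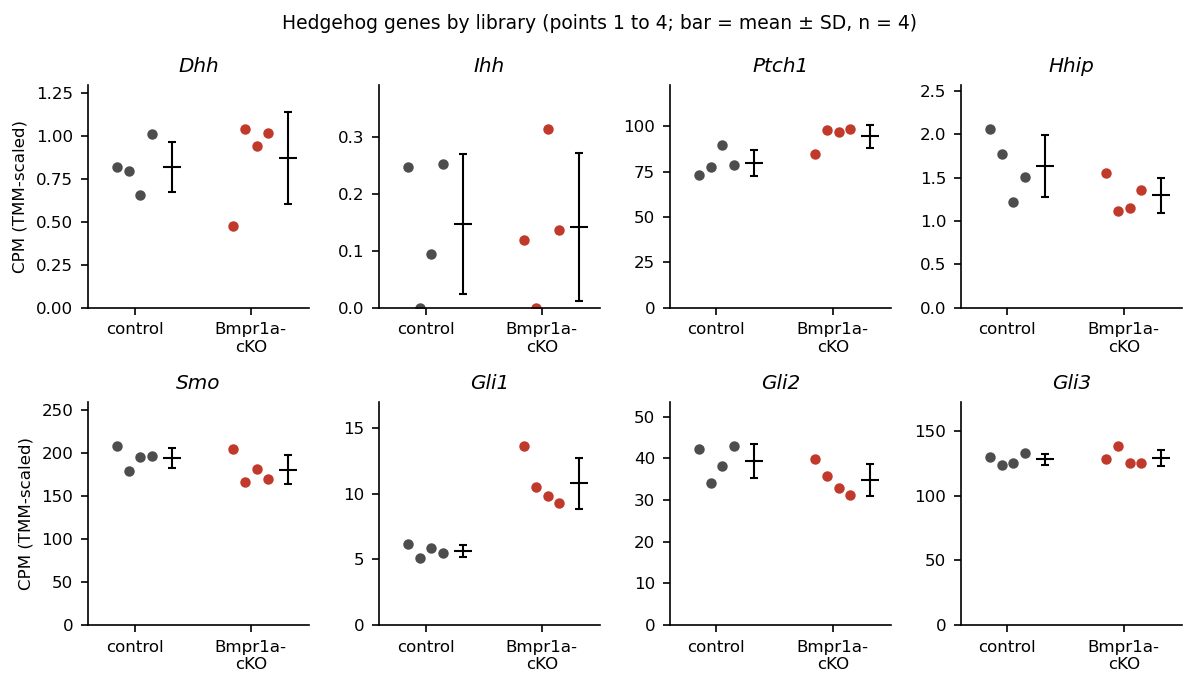
CPM of the 8 Hedgehog genes (vertical axes, each from 0) in the 4 control and 4 *Bmpr1a*-cKO libraries, with points in replicate order 1 to 4 and bars for the mean ± SD (n = 4). For *Gli1* the libraries run from 5.14 to 6.17 in control and from 9.28 to 13.6 in *Bmpr1a*-cKO, whereas for each of the other 7 genes the groups overlap.

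*Gli1* encodes a Gli factor that acts as an activator and is not processed into a repressor. Its level was 6.17, 5.14, 5.90 and 5.49 CPM in control libraries 1 to 4 and 13.6, 10.5, 9.84 and 9.28 CPM in *Bmpr1a*-cKO libraries 1 to 4. No *Bmpr1a*-cKO library was as low as the highest control, and the first of them stood highest. Of all genes tested, 27.9% had groups that did not overlap. The means were 5.67 ± 0.453 and 10.8 ± 1.93 CPM (SD, n = 4), from 58 to 141 counts per library. The Log2FC was 0.91 with an SE of 0.14 (FDR = 0.000193 by edgeR). It was the only member to reach the DEG thresholds of an absolute Log2FC above 0.5 and an FDR below 0.05, and 6.11% of all genes were DEGs that were higher. *Gli1* kept its call in all 21 other fits, and its Log2FC lay between 0.80 and 0.98 when any 1 library was left out.

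*Gli1* overlaps the last exon of *Arhgap9* on the opposite strand and the antisense gene *Gm47200*, which is not among the genes counted. The libraries were directional, but whether the counting used strand is not given in the sources used here. *Arhgap9* held 2.47, 1.33, 1.31 and 1.96 CPM in control and 3.34, 2.16, 1.47 and 1.16 CPM in *Bmpr1a*-cKO libraries. Its groups overlapped, its mean was below that of *Gli1* in both genotypes, and its Log2FC was 0.12 (FDR = 0.811 by edgeR). A part of *Gm47200* in the *Gli1* counts was not tested.

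*Ptch1* encodes the main receptor, whose transcript rises where the pathway is active. It measured 73.1, 77.8, 89.5 and 78.6 CPM in control and 84.8, 97.9, 96.6 and 98.4 CPM in *Bmpr1a*-cKO libraries. *Bmpr1a*-cKO libraries 2 to 4 were above all controls, and the first was below control library 3, so the groups overlapped. The means were 79.8 ± 6.95 and 94.4 ± 6.47 CPM (SD, n = 4), with 711 to 1442 counts per library. The Log2FC was 0.25 with an SE of 0.072 (FDR = 0.0181 by edgeR), below the fold threshold of a DEG. This call depended on single libraries and on scaling. Without control library 1 or 4, or without *Bmpr1a*-cKO library 2, 3 or 4, the FDR was 0.0517 to 0.0659, and the Log2FC stayed between 0.21 and 0.30 over all libraries left out in turn. Scaled by library size alone, the Log2FC was 0.20 (FDR = 0.0562), and scaled to the germ cell markers it was 0.08 (FDR = 0.861). The germ cell markers themselves differed with genotype, 3 higher and 3 lower of 10. The most abundant, *Dazl*, had means of 327 and 506 CPM (FDR = 0.00101), so that scaling is not independent of genotype.

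*Hhip* encodes a membrane protein that binds Hedgehog ligands and keeps them from Patched, and it too is a target in many tissues. It measured 2.06, 1.77, 1.22 and 1.51 CPM in control and 1.55, 1.12, 1.15 and 1.36 CPM in *Bmpr1a*-cKO libraries. The groups overlapped, and the means of 1.64 ± 0.358 and 1.30 ± 0.202 CPM (SD, n = 4) stood in the opposite order to those of *Gli1* and *Ptch1*. The Log2FC was -0.35 with a 95% CI of -0.88 to 0.18 (FDR = 0.317). With 11 to 25 counts per library, the interval ran from 0.543 to 1.13 of the control level, and a difference within it was not detectable at this depth.

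*Smo* encodes the transducer and had the highest count of the members. Its level was 208, 179, 196 and 197 CPM in control and 205, 167, 182 and 170 CPM in *Bmpr1a*-cKO libraries. The groups overlapped, with means of 195 ± 11.7 and 181 ± 17.1 CPM (SD, n = 4). The Log2FC was -0.11 (95% CI -0.26 to 0.04, FDR = 0.265 by edgeR). Without *Bmpr1a*-cKO library 1, the highest of its group, it was -0.17 (FDR = 0.0393).

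*Gli2* and *Gli3* encode the Gli factors that are present before the pathway is active. *Gli2* measured 42.2, 34.1, 38.1 and 42.9 CPM in control and 39.8, 35.8, 32.8 and 31.2 CPM in *Bmpr1a*-cKO libraries. The groups overlapped, with control library 2 below 2 of the *Bmpr1a*-cKO libraries and *Bmpr1a*-cKO library 1 above controls 2 and 3. The Log2FC of *Gli2* was -0.18 (95% CI -0.38 to 0.01, FDR = 0.154), and it was -0.25 without control library 2 (FDR = 0.0439) and without *Bmpr1a*-cKO library 1 (FDR = 0.0393). *Gli3*, the main source of Gli repressor, measured 130, 124, 125 and 133 CPM in control and 128, 138, 125 and 125 CPM in *Bmpr1a*-cKO libraries. These groups lay on top of each other. The Log2FC was 0.01 (95% CI -0.11 to 0.13, FDR = 0.936), and its sign changed between fits. As a fold, the interval of *Gli3* ran from 0.925 to 1.09.

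The ligands were close to the limit of detection. *Dhh* held 10, 9, 7 and 16 counts in control and 4, 14, 9 and 15 counts in *Bmpr1a*-cKO libraries, or 42 counts in each group. Its groups overlapped throughout, at 0.821 ± 0.146 and 0.871 ± 0.266 CPM (SD, n = 4). The Log2FC was 0.11 with a 95% CI of -0.54 to 0.77 (FDR = 0.822 by edgeR), or 0.686 to 1.70 of the control level, and a difference within that was not detectable at this depth. An exon of *Dhh* overlaps *Rhebl1*, a small GTPase gene on the same strand, and the antisense gene *Gm49442*, which is not among the genes counted. *Rhebl1* was higher in *Bmpr1a*-cKO ovaries, at 3.05 ± 0.560 in control against 5.93 ± 0.428 CPM (SD, n = 4; Log2FC 0.97, FDR = 0.000544 by edgeR). The *Dhh* counts did not follow it. The study states that STAR also counted the reads per gene, but not how reads in such an overlap were assigned. A loss of *Dhh* reads to the overlap was not tested, so its low counts may understate its level.

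*Ihh* held 3, 0, 1 and 4 counts in control and 1, 0, 3 and 2 counts in *Bmpr1a*-cKO libraries, 8 and 6 in all. The counts lie at or near the floor of a library, where a count of 0 allows up to 3 counts, or 0.189 to 0.358 CPM depending on depth. No fold is given for it. The third mammalian ligand, *Shh*, was no better detected, with 3, 2, 5 and 7 counts in control and 2, 0, 1 and 4 counts in *Bmpr1a*-cKO libraries. None of the ligands could thus be tested for a change of moderate size, and counting error alone is covered by these floors.

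Levels of different genes were compared as CPM per kb of exon. All exon bases were used, for *Dhh* also those that overlap *Rhebl1*, where reads may not have been counted for *Dhh*. In control libraries the order was *Smo* at 34.7 ± 2.08, *Gli3* at 13.4 ± 0.417, *Gli2* at 5.72 ± 0.591, *Ptch1* at 5.62, *Gli1* at 1.14, *Dhh* at 0.187, *Hhip* at 0.181 and *Ihh* at 0.0486 CPM per kb. The ranges of *Gli2* and *Ptch1* overlapped, as did those of *Dhh* and *Hhip*, and these neighbours do not differ beyond their spread. No other neighbours overlapped in control. In *Bmpr1a*-cKO libraries *Ptch1* came before *Gli2*, at 6.66 and 5.08 CPM per kb without overlap, and *Gli1* stood at 2.16 CPM per kb, still below *Gli2*.

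**Figure D2:**
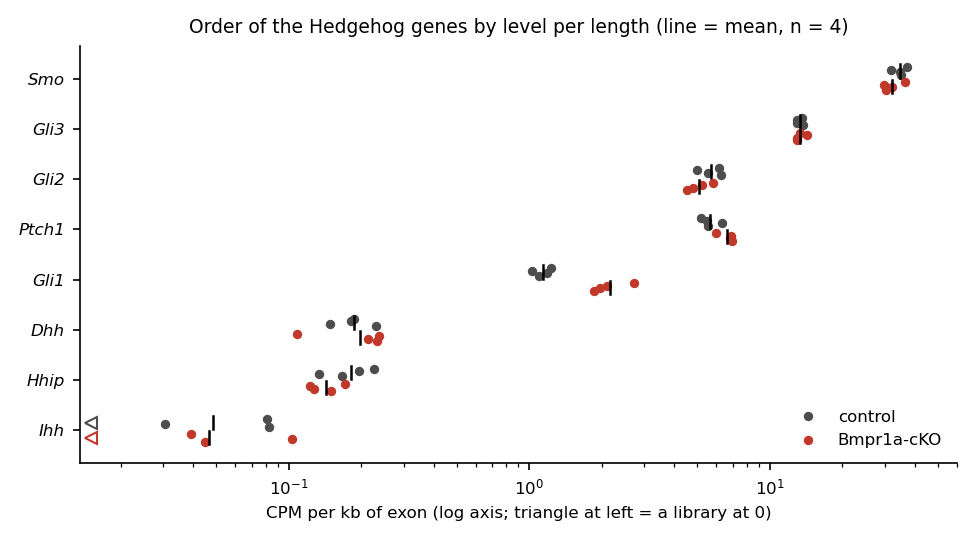
CPM per kb of exon (horizontal log axis) of the 8 Hedgehog genes in the 4 control and 4 *Bmpr1a*-cKO libraries, ordered by the control mean, with lines for the means and open triangles for libraries at 0. *Smo* and *Gli3* stand highest at 34.7 and 13.4, *Gli1* moves from 1.14 to 2.16, and the ligands *Dhh* and *Ihh* lie near the bottom.

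Whether *Gli1* differed from the other members in how far it moved was tested within each library, as the log2 ratio of its count to theirs, which does not depend on library scaling. The ratio to *Ptch1* was -3.56, -3.91, -3.91 and -3.83 in control and -2.64, -3.22, -3.29 and -3.40 in *Bmpr1a*-cKO libraries. The groups did not overlap, and the mean ratio was 0.67 higher in *Bmpr1a*-cKO. The groups were also apart for the ratios to *Gli3* (0.90 higher), *Smo* (1.02) and *Gli2* (1.08) and for those to the low-count genes *Dhh* (0.86) and *Hhip* (1.22). For these 6 pairs the exact permutation test (two-sided, 70 arrangements) gave p = 0.0286, the smallest it can give, and 0.0333 after adjustment over the 7 pairs. All 7 ratios share the *Gli1* counts, and *Gli1* was the only member whose groups did not overlap. The 6 p-values therefore restate the separation of *Gli1* and are not 6 separate results. The ratio to *Ihh* differed by 0.98 with overlapping groups (exact permutation test, p = 0.343). With 1 library left out the test has 35 arrangements. For the ratios to *Smo*, *Gli2*, *Gli3* and *Hhip* the adjusted p was then 0.0333 to 0.04 (exact permutation test), except without *Bmpr1a*-cKO library 1. Without that library it was 0.05 for each of them, at the threshold of 0.05 and not below it. The ratio to *Ptch1* missed it without *Bmpr1a*-cKO library 1 (0.50 higher, exact permutation test, adjusted p = 0.0667), and that to *Dhh* missed it without any 1 of the controls or *Bmpr1a*-cKO library 1 (exact permutation test, adjusted p = 0.0667 in each).

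**Figure D3:**
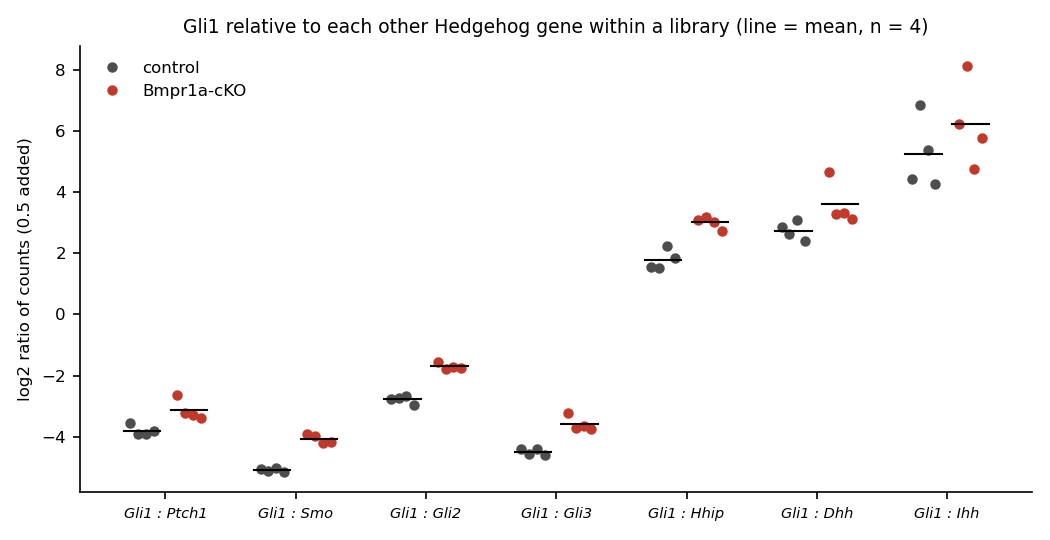
Log2 ratio of *Gli1* counts to those of each other Hedgehog gene (vertical axis, 0.5 added to each count) within the 4 control and 4 *Bmpr1a*-cKO libraries, with lines for the means. The *Bmpr1a*-cKO points lie above all control points for *Ptch1*, *Smo*, *Gli2*, *Gli3*, *Hhip* and *Dhh*, and the groups mix for *Ihh*.

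The rest of the pathway was read from 3 lists with 40 genes, of which 38 were tested. Of these, 12 were called, or 31.6%, close to the 29.8% of all genes, and none was a DEG. The directions were not those of all genes. Of the 38, 3 were higher and 9 lower, beside 17.3% of all genes higher and 12.5% lower. The median Log2FC was -0.10 and the range -0.48 to 0.42. In 10 of the 38 the groups did not overlap, beside 27.9% of all genes.

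Among the genes of ligand production and release, 3 of 5 tested were lower and none was higher, beside 12.5% and 17.3% of all genes. *Scube3* and *Scube1* encode secreted proteins that carry lipid-modified Hedgehog ligands away from the cell. *Scube3* measured 90.4, 84.7, 92.6 and 87.9 CPM in control and 66.5, 61.6, 65.1 and 62.6 CPM in *Bmpr1a*-cKO libraries. All *Bmpr1a*-cKO libraries were below all controls, with a Log2FC of -0.48 (FDR = 2.82e-05). *Scube1* fell from 69.2 to 53.5 CPM (Log2FC -0.38, FDR = 0.00253) and *Disp1*, which encodes the transporter that releases the ligand, from 49.7 to 43.0 CPM (Log2FC -0.22, FDR = 0.0459). *Hhat*, which encodes the ligand acyltransferase, and *Scube2* had a Log2FC of -0.21 (FDR = 0.142) and -0.24 (FDR = 0.153). *Shh* and *Disp2* were too low to be tested. The calls of *Scube3* and *Scube1* held whichever library was left out. With the marker scalings *Scube3* kept its call and *Scube1* lost it (FDR = 0.103 for germ cell and 0.108 for stroma markers). The call of *Disp1* was lost without control 1 or 4 or *Bmpr1a*-cKO 2, 3 or 4 (FDR 0.0924 to 0.147).

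None of the 7 genes listed as receptors and co-receptors beside *Ptch1* was called. The co-receptors *Gas1*, *Cdon* and *Boc*, which present ligand to Patched, had means of 150 and 142, 188 and 177, and 163 and 138 CPM in control and *Bmpr1a*-cKO. *Boc* was nearest to the threshold, with a Log2FC of -0.25 (FDR = 0.0505).

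In the relay from Smo to the Gli factors, 9 of 26 genes were called, a share near the 29.8% of all genes. Of the 26, 3 were higher and 6 lower, beside 17.3% of all genes higher and 12.5% lower. The 6 that were lower included *Sufu*, which encodes the protein that holds Gli factors in the cytoplasm. It measured 74.5, 67.6, 71.2 and 72.8 CPM in control and 67.4, 62.0, 56.0 and 58.1 CPM in *Bmpr1a*-cKO libraries, just without overlap (Log2FC -0.24, FDR = 0.0175). *Evc2* and *Evc*, which encode a pair of ciliary proteins that bind Smoothened, had a Log2FC of -0.39 (FDR = 0.00895) and -0.31 (FDR = 0.0107). *Gpr161*, a ciliary receptor gene whose product restrains the pathway, had a Log2FC of -0.22 (FDR = 0.0323), the kinase gene *Ulk3* of -0.30 (FDR = 0.0424) and *Spop*, an adaptor of a ubiquitin ligase that acts on Gli factors, of -0.16 (FDR = 0.0400). The genes that were lower thus include both restraining components (*Sufu*, *Gpr161*, *Spop*) and promoting ones (*Evc*, *Evc2*). The 3 that were higher were *Arrb2*, which encodes a β-arrestin (0.42, FDR = 0.0111), *Fbxw11*, an F-box protein gene (0.32, FDR = 0.00202), and *Csnk1a1*, the casein kinase 1α gene (0.24, FDR = 0.00982). These 3 have roles in many pathways. The calls of *Evc*, *Evc2*, *Fbxw11* and *Csnk1a1* held whichever library was left out. With germ cell marker scaling the FDR of these 4 was 0.182, 0.115, 0.702 and 0.881, and with stroma marker scaling it was 0.294 for *Evc*, 0.10 for *Evc2* and 0.109 for *Csnk1a1*. *Sufu* lost its call without control 1 or *Bmpr1a*-cKO 3 or 4 (FDR 0.0536 to 0.0684), and *Arrb2* without control 4 (FDR = 0.0521). *Gpr161* lost it without any of 6 libraries, that is unless control 1 or *Bmpr1a*-cKO 1 was the one left out (FDR 0.0512 to 0.116). *Ulk3* lost it unless control 2 or *Bmpr1a*-cKO 1 was left out (FDR 0.0509 to 0.134), and *Spop* unless control 2 was (FDR 0.0537 to 0.0961).

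**Figure D4:**
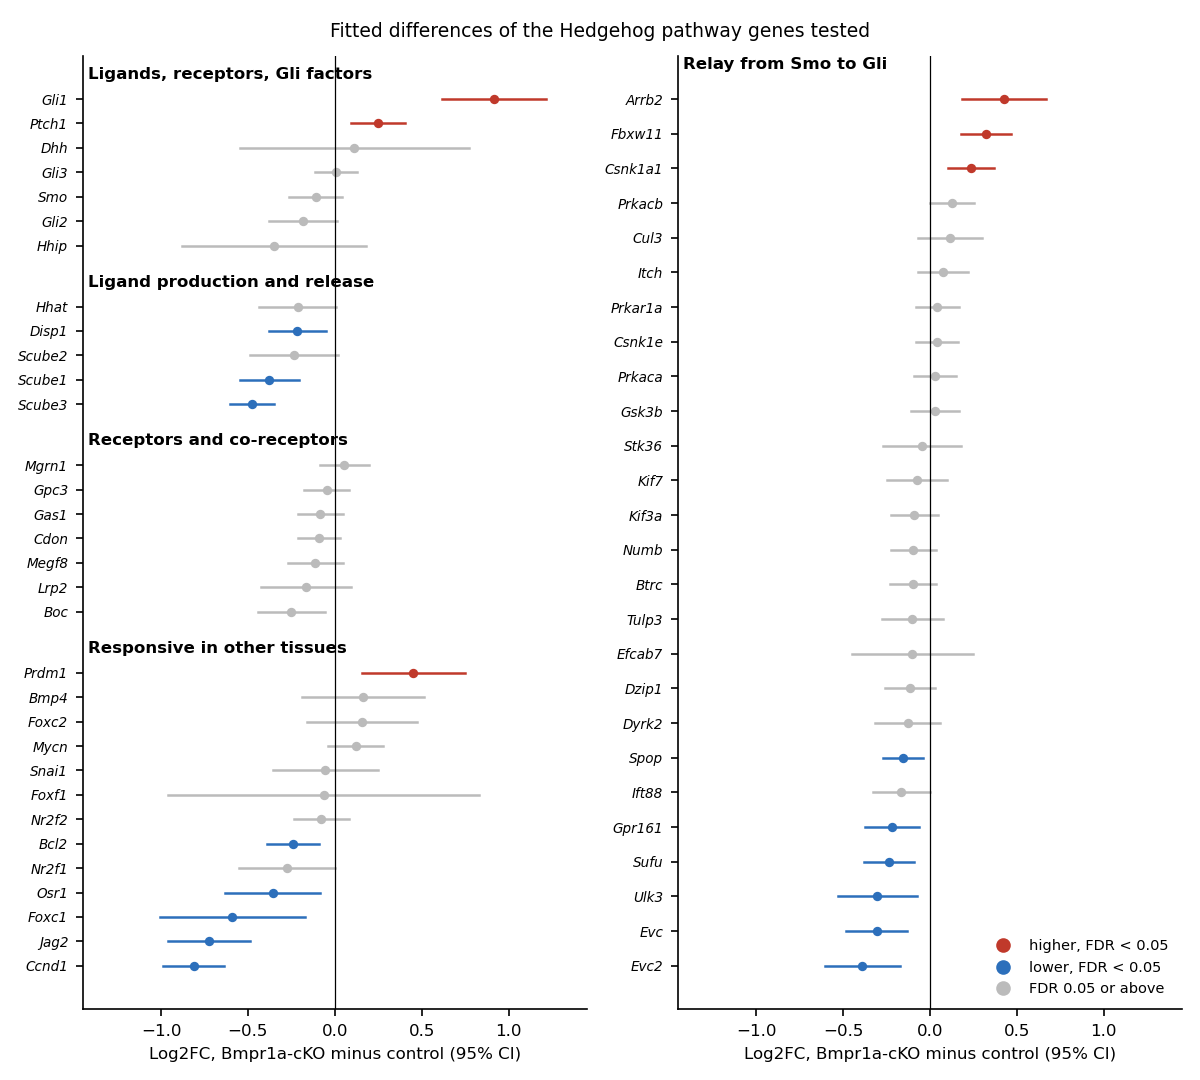
Log2FC of *Bmpr1a*-cKO minus control with 95% CI (horizontal axes) for each tested Hedgehog gene, grouped by role, with red for higher and blue for lower at an FDR below 0.05 and grey otherwise. *Gli1*, at 0.91, lies to the right of all others drawn, and *Ccnd1*, at -0.81, lies farthest to the left.

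A further list held genes that respond to Hedgehog in other tissues. Of 17 listed, 13 were tested and 6 were called, or 46.2%, with 1 higher and 5 lower, beside 29.8% of all genes called, 17.3% higher and 12.5% lower, and the median Log2FC was -0.08. *Prdm1*, a transcriptional repressor gene that is also needed to form germ cells, was higher, at 16.3 and 21.8 CPM (Log2FC 0.45, FDR = 0.0239), with overlapping groups. The 5 that were lower were *Ccnd1*, the cyclin D1 gene (-0.81, FDR = 4.29e-06), the Notch ligand gene *Jag2* (-0.72, FDR = 0.000188), *Foxc1* (-0.59, FDR = 0.0339), *Osr1* (-0.36, FDR = 0.0480) and *Bcl2* (-0.24, FDR = 0.0182). *Ccnd1* measured 72.4, 84.4, 94.9 and 75.3 CPM in control and 45.7, 45.7, 49.2 and 45.4 CPM in *Bmpr1a*-cKO libraries. Its groups were far apart, in the direction opposite to *Gli1*. The study reports that the rise of *Ccnd1* at meiotic onset relies on BMP signalling, so in these ovaries it is not a readout of Hedgehog alone. *Ccnd1*, *Jag2* and *Foxc1* were DEGs. Several of these 17 genes are targets of other pathways too, *Grem1* held no count in any library, and *Foxf1*, a classical mesenchymal target, was low at 0.778 and 0.752 CPM (FDR = 0.929). The calls of *Ccnd1* and *Jag2* held whichever library was left out. *Prdm1* lost its call without control 1 or 4 or *Bmpr1a*-cKO 2 or 4 (FDR 0.0738 to 0.0988), and *Bcl2* without control 4 (FDR = 0.0629). *Foxc1* lost it without control 1, 3 or 4 or *Bmpr1a*-cKO 2 or 3 (FDR 0.0503 to 0.0953), and *Osr1* unless control 3 or *Bmpr1a*-cKO 1 was left out (FDR 0.0625 to 0.173).

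The promoters of the members were searched for the Gli binding sequence GACCACCCA on both strands, in the 250 bases before and 50 bases after the start site of the RefSeq table. Entries were found for 7 of the 8 members, and *Gli1* has none there. None of the 7 windows held the sequence with at most 1 mismatch, while 6.74% of 32851 windows of the same length did, and 0.253% held it exactly. This says only that these letters are not in those windows.

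Markers of the cells of the ovary moved with the genotype too. Of all genes, 17.3% were higher and 12.5% lower, which is the background of the counts that follow. All 10 markers of pregranulosa cells were lower, with a median Log2FC of -0.33, and their summed level was 1420 to 1530 CPM across the controls and 1100 to 1360 CPM across *Bmpr1a*-cKO. *Foxl2*, which defines these cells, had a Log2FC of -0.57 (FDR = 1.80e-05). None of the 12 stroma markers was called, at 3750 to 4800 and 3620 to 4480 CPM in all, with *Nr2f2* at -0.08 and *Pdgfra* at -0.07. Of 7 steroidogenic markers tested, 2 were lower, *Hsd3b1* (FDR = 0.00561) and *Nr5a1* (FDR = 0.00313). The sum was 237 to 248 against 181 to 220 CPM, and *Nr5a1* alone had means of 171 and 140 CPM. The study used *Nr5a1*, under the name *Sf1*, as a marker of somatic cells, so here it does not mark steroidogenic cells alone. *Cyp11a1*, at 3.30 and 2.37 CPM, and *Cyp17a1*, at 2.13 and 1.47 CPM, were not called (FDR = 0.156 and 0.148). These 2 genes were lower at an FDR below 0.05 without *Bmpr1a*-cKO 1 (0.0399 and 0.0392), and *Cyp11a1* also without control 4 (0.0449). The part of these cell types in the Hedgehog values was not tested.

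The germ cell list, with *Ddx4* at 142 and 153 CPM, held 3 higher and 3 lower genes of 10, and its sum was 803 to 1030 CPM across the controls and 730 to 1230 CPM across *Bmpr1a*-cKO. *Bmpr1a*-cKO library 1, which had the most *Gli1*, had the lowest germ cell sum. *Ddx4* passed the test without that library (Log2FC 0.25, FDR = 0.0466). Without it the *Gli1* difference was smaller and kept its call, at a Log2FC of 0.80 (FDR = 0.000253). Beside the same background, macrophage markers were higher in 4 of 7 (36.0 to 44.8 against 46.9 to 59.5 CPM). Mesonephros markers were lower in 3 of 7 (193 to 231 against 150 to 173 CPM). The 3 were *Gata3*, *Emx2* and *Krt8*, and most of the sum was *Emx2* (119 and 99.1 CPM) and *Krt8* (58.5 and 46.2 CPM). *Pax2*, at 1.37 and 1.24 CPM, *Pax8*, *Cdh16* and *Lhx1* were not called (FDR = 0.641, 0.195, 0.764 and 0.115). Surface epithelium markers were lower in 4 of 7 (909 to 1020 against 831 to 896 CPM, with *Upk3b* at 99.7 and 94.9 CPM). The surface epithelium list shares *Wt1* and *Lgr5* with the pregranulosa list. The part of all these cell types in the Hedgehog values was not tested.

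Cell types that make or receive Hedgehog ligands elsewhere were also looked for. Of the Sertoli markers, *Dmrt1* was higher and *Sox9* lower (9.25 and 6.84 CPM, FDR = 0.0135), and 6 of 8 were not called. The study lists *Dmrt1* among genes of early germ cells and pluripotency, so in these ovaries it is not a marker of Sertoli cells alone. Of the markers of Schwann cells and neurons, 4 of 7 could be tested and *Erbb3* was higher, but *Sox10*, which defines Schwann cells, held 0 to 3 counts. None of the 8 endothelial markers was called (309 to 361 against 289 to 331 CPM, with *Pecam1* at 66.1 and 60.9 CPM), and 1 of 7 markers of smooth muscle and pericytes and 1 of 4 erythroid markers tested were lower. Of the erythroid list, *Hba-a1*, *Hba-a2*, *Hbb-bt* and *Hbb-bs* are listed at 0 in every library.

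**Figure D5:**
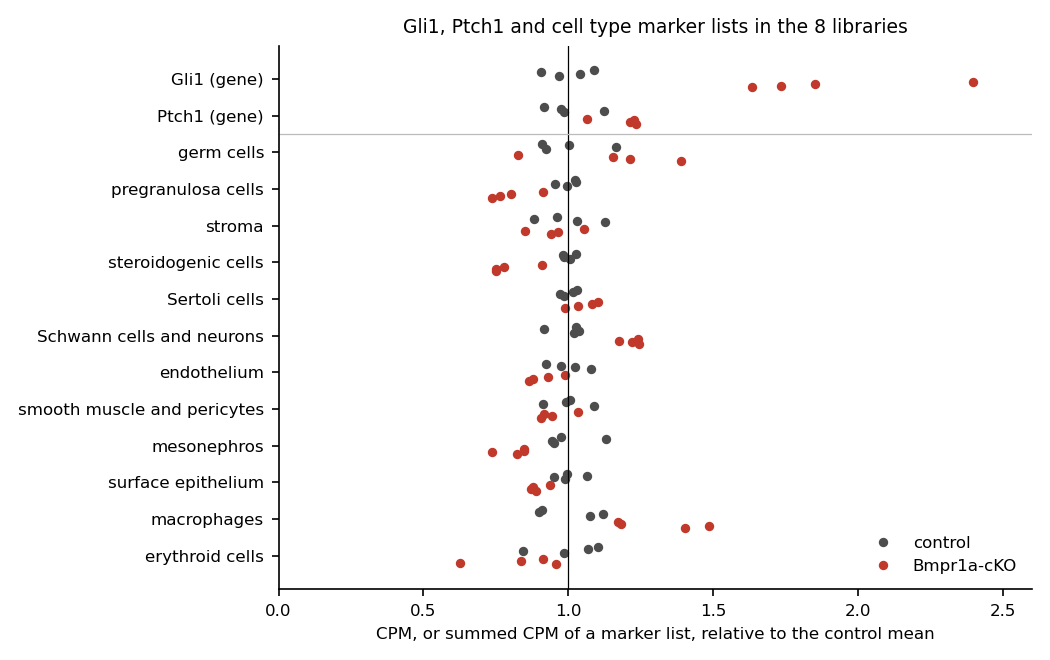
CPM of *Gli1* and *Ptch1* and summed CPM of 12 marker lists, each divided by its control mean (horizontal axis), in the 4 control and 4 *Bmpr1a*-cKO libraries. *Gli1* lies farther to the right than the sum of any list drawn, and the pregranulosa sum lies to the left of all its controls.

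The genes whose level over the 8 libraries was most like that of *Gli1* were *Pml* (Pearson's r 0.988 on log2 CPM), *Foxk2* (0.987), *Srm* (0.985), *Arhgap10* (0.982) and *Srrt* (0.982). All 5 were higher in *Bmpr1a*-cKO ovaries, from 0.21 for *Foxk2* to 0.53 for *Srm* (Log2FC), less than *Gli1*. Once the mean of each genotype was subtracted, the 5 most similar were *Med8* (0.998), *Dapk1* (0.993), *Plekhm2* (0.993), *Slc12a7* (0.988) and *Sipa1* (0.987), none shared with the first 5. These are the top of 14249 genes over 8 points that share depth and genotype, so they are a description without a test. *Sipa1* measured 81.8 CPM in *Bmpr1a*-cKO library 1 and 60.7 to 63.9 CPM in the other 3 of that group, the library in which *Gli1* also stood highest.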

How the data were processed

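Total RNA of 8 pooled E14.5 ovary samples was sequenced as directional paired-end libraries. The submitters' processing notes name Trimmomatic 0.39, FastQC 0.11.9, STAR 2.5.2, edgeR and mm10. The deposited files hold the count of reads per gene symbol in each library, as whole numbers without normalization, and their annotation and strand setting are not given in the sources used here. The authors also deposited a table of CPM-like signal for 14244 genes, of which only the gene names were used, as an alternative filter.

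Counts were analysed in R 4.3.3 with edgeR 4.0.16 (filterByExpr, TMM, quasi-likelihood F test of genotype, two-sided, Benjamini-Hochberg over 14249 genes). CPM is TMM-scaled, and an FDR below 0.05 was a call. A DEG also had an absolute Log2FC above 0.5, as in the study. Confidence intervals are 95% and used the residual and prior degrees of freedom. Alternatives used limma 3.58.1 and DESeq2 1.42.0, other scalings and filters, a replicate block, and each library left out in turn. The fit without *Rn45s*, which took 13.1% to 16.7% of counts, was added after the data were seen. Ratios of *Gli1* to another gene had 0.5 added to each count. Exon lengths are unions of exons. The fit was tested on simulated data, where 97 of 100 genes changed by a Log2FC of 1 and 100 of 100 changed by 2 were called. In the same data 13 unchanged genes were called. The changed genes were drawn from those above a count limit, so this does not cover genes with few counts.

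The members, lists and tests were chosen with earlier results of these data known. Some genes are not reported here, and the original lists and their counts were shortened by them. Named are the members, every called gene of the pathway and responsive lists with *Shh* and *Sufu*, defining markers, and the 5 genes most like *Gli1* by either measure. *Rhebl1* and *Arhgap9* were added for their overlap, and other genes are named as members of the lists. p-values measure the spread between pools of 2 embryos.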

Additional observations from a re-analysis of the deposited data

Results flagged for a closer look

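A library that stood apart from the other 3 of its group was looked for in 92 groups of 4 (Dixon's ratio above 0.829), and 8 were found. Chance gives about 1 in 20, and the cause was not tested. *Bmpr1a*-cKO library 1 accounted for 5 of the 8. It had the lowest *Ptch1* of its group, at 84.8 CPM against 96.6 to 98.4, and the lowest *Arrb2*, at 32.4 against 41.2 to 42.4 CPM. It had the highest *Pdgfra*, at 235 against 203 to 204 CPM, the highest *Cyp11a1*, at 3.46 against 1.93 to 2.09 CPM, and the highest *Sipa1*, at 81.8 against 60.7 to 63.9 CPM. *Sipa1* was named for its likeness to *Gli1* within genotypes, and *Gli1* was highest in this library, so that flag follows from the choice. The flags in other libraries were *Ulk3* in control library 2, at 11.8 against 13.1 to 13.2 CPM, *Sox9* in control library 3, at 7.87 against 9.59 to 9.83 CPM, and *Ccnd1* in *Bmpr1a*-cKO library 3, at 49.2 against 45.4 to 45.7 CPM.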

How the results depend on the processing

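The *Gli1* call held in all 21 other fits (Log2FC 0.78 to 0.99). The number of genes called was 4242, against 1061 with germ cell marker scaling (36.7% higher, 58% before), 2270 with stroma marker scaling (75.1% higher) and 1449 with the fold threshold, and 3101 to 5038 with 1 library left out (lowest for *Bmpr1a*-cKO 2 and highest for *Bmpr1a*-cKO 1). Calls split 48.7% and 43.1% higher with upper-quartile scaling and library size alone. Germ cell scaling shifted the median Log2FC by -0.17. Of the members, 1 was called by library size alone, with either marker scaling and with the fold threshold, and 1 to 4 with 1 library left out. Of the pathway genes, 1, 3 and 0 were called with germ cell scaling, stroma scaling and the fold threshold, and 7 to 15 with 1 library left out. Of the responsive genes it was 3 in each of these fits, and 2 to 6 with 1 library left out. *Ptch1* lost its call by library size alone (Log2FC 0.20), with germ cell scaling (0.075) and with stroma scaling (0.32, FDR = 0.0771), and its Log2FC was 0.21 to 0.30 with 1 library left out. Signs turned for *Gli3* (RLE -0.00272, upper-quartile -0.0262, library size -0.0444, germ cell -0.155, no filter -0.00187, DESeq2 -0.00266, without *Rn45s* -3.24e-05, 1 library left out -0.0259 to 0.0233) and with germ cell scaling for *Dhh* (-0.139), *Ddx4* (-0.088) and *Med8* (-0.0115), and with stroma scaling for *Sipa1* (0.000604). Ordered by CPM without length, 4 of the 8 members kept their place.

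Same-numbered libraries correlated by -0.087 to 0.198 in their deviations, 3 of 4 pairs were above 0.1, and 2 of 4 controls and 3 of 4 *Bmpr1a*-cKO libraries correlated best with their own number. As 1 pair fell short, the numbers were not taken as a pairing. The replicate block gave 4771 calls and ended the call of *Osr1* (FDR = 0.0509). Of the *Gli1* ratios, 0 of 7 passed with the block, where 4 pairs allow no p under 0.125. With 1 library left out, 4 to 6 were at or below an adjusted p of 0.05. The 4 were those without *Bmpr1a*-cKO library 1, at 0.05 itself and not below it (exact permutation test).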
